A study of Mus musculus with 6 samples.

Results

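Described here are 39 genes of macrophages and other myeloid cells in cultures of mouse fat cells. They were chosen by symbol as a measure of how much macrophage RNA each culture held, and all 39 were found among the 20295 genes of the count table. The study sequenced RNA from adipocytes differentiated in culture from the stromal-vascular fraction, the non-adipocyte cells that collagenase releases from fat. Brown adipose tissue (BAT) was pooled from interscapular, cervical and axillary sites. The other depots were inguinal (iWAT) and epididymal (eWAT) white adipose tissue, and each of the 3 depots gave 2 libraries. Every group came from male NMRI mice 4 to 5 weeks old and was grown with insulin (30 nM) and rosiglitazone (1 µM), an agonist of the adipogenic receptor Pparg. Cells were harvested 8 days after plating, while the descriptions tag the libraries with day 7. A degree of differentiation above 50% was required of a culture. The labels describe no sort or step that removes leukocytes.

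Macrophages are phagocytes of the innate immune system that live in all fat depots and enter the stromal-vascular fraction with the precursors of fat cells. They depend on the growth factor receptor Csf1r and on the transcription factor PU.1, encoded by Spi1. On their surface they carry Fc receptors, several of which signal through the adaptor Fcer1g, and receptors such as Trem2 that signal through the adaptor Tyrobp. They also carry receptors for microbes and modified lipoproteins. Inside they hold large lysosomes and the oxidase that makes superoxide during phagocytosis. In fat they are known for clearing dead adipocytes and lipid, and for their increase in obesity.

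Total counts ran from 2889038 (BAT replicate 2) to 4807449 (BAT replicate 1), so a count of 3 equalled from 0.634 to 1.15 CPM (counts scaled to a common library total). The labels do not say that replicates came from separate animals or cultures, so every p-value here measures only the spread between these libraries, which may be technical. Adipoq, the adipocyte hormone adiponectin, was at 1463 and 2171 CPM in BAT, 1428 and 1602 CPM in iWAT, and 1401 and 2396 CPM in eWAT, so all 6 libraries carried adipocyte RNA. The 10 adipocyte markers together reached from 31538 to 53454 CPM in a library, against from 256 to 7287 CPM for the 39 macrophage genes.

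A core of 13 genes (Emr1, Csf1r, Cd68, Itgam, Fcgr1, Fcgr3, Fcer1g, Tyrobp, Laptm5, Spi1, Ptprc, Cd53 and Mpeg1) was summed as a single level per library. The core stood at 127 and 33.3 CPM in BAT, 198 and 63.9 CPM in iWAT, and 1300 and 706 CPM in eWAT. Both eWAT libraries lay above the other 4, while BAT replicate 1 lay between the iWAT libraries. The core averaged 79.9 ± 66.0 CPM in BAT, 131 ± 95.2 CPM in iWAT and 1003 ± 421 CPM in eWAT (SD, n = 2 each), so the eWAT mean was 12.5 times the BAT mean and 7.65 times the iWAT mean. As a share of all counts, the core took 0.0125% (exact binomial 95% interval 0.0115% to 0.0135%) and 0.00301% (0.00241% to 0.00371%) in BAT. The shares were 0.0194% (0.0181% to 0.0208%) and 0.00658% (0.0058% to 0.00745%) in iWAT, and 0.136% (0.133% to 0.140%) and 0.0738% (0.0709% to 0.0767%) in eWAT. These intervals cover counting error only. In RNA from whole cultures, fewer macrophages and less RNA per macrophage cannot be told apart.

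**Figure D1:**
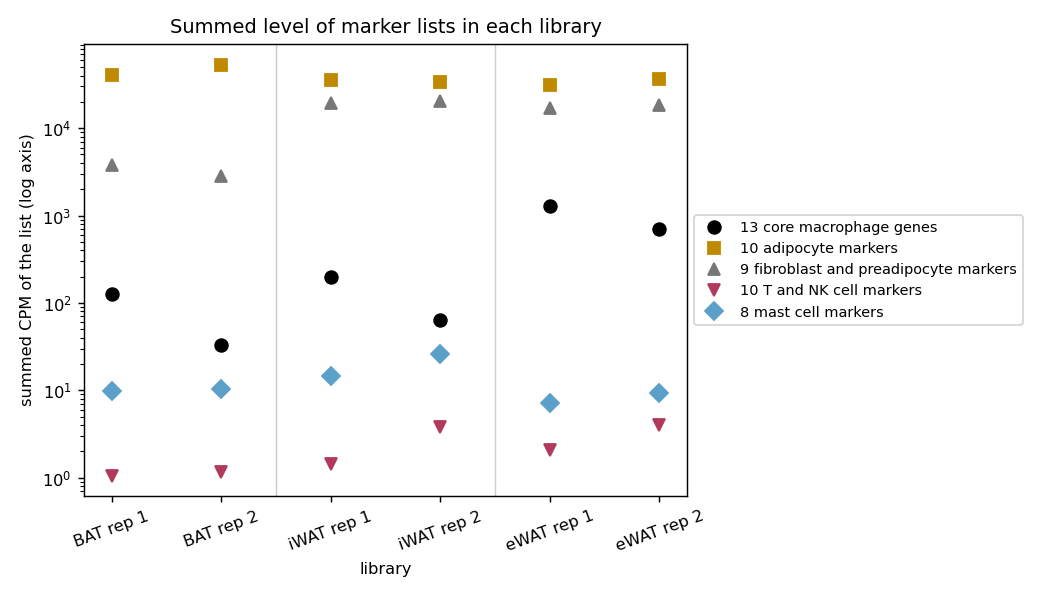
Summed level of 5 marker lists in each library, in CPM on a log axis, with 1 point per library and list. The core macrophage genes (black circles) reach 1300 and 706 CPM in eWAT and stay at or under 198 CPM in BAT and iWAT, while the adipocyte markers (squares) span 31538 to 53454 CPM over all 6 libraries.

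The replicates of a depot also differed. Replicate 1 held 3.81 times the core CPM of replicate 2 in BAT, 3.11 times in iWAT and 1.84 times in eWAT. Of the 39 genes, 29 were higher in replicate 1 than in replicate 2 in all 3 depots, against 23.4% of the 11732 genes tested. Lyz2, the lysozyme of macrophages and the most abundant of the genes by mean CPM, made up from 21.0% to 49.8% of their summed counts. Gpnmb had more counts than Lyz2 in 2 libraries, with 311 against 160 in BAT replicate 2 and 1124 against 474 in iWAT replicate 2.

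Both eWAT libraries lay above the other 4 for 37 of the 39 genes, against 12.8% of all genes tested. The exceptions were Aif1, a calcium-binding protein of activated macrophages, and Cx3cr1, the receptor for fractalkine. The depot means followed the order eWAT, iWAT, BAT for 33 genes, against 25.8% of all genes tested. The 6 others had BAT above iWAT: Lyz1, Aif1, Coro1a, Cx3cr1, Folr2 and Pld4. Of the 39 genes, 7 had no count in at least 1 BAT library and 2 in at least 1 iWAT library, and all were counted in both eWAT libraries. The genes were tested across all genes with edgeR, and 36 passed its filter on low counts; since they passed largely through eWAT, the counts among them are an account of these genes and not support for a depot difference.

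**Figure D2:**
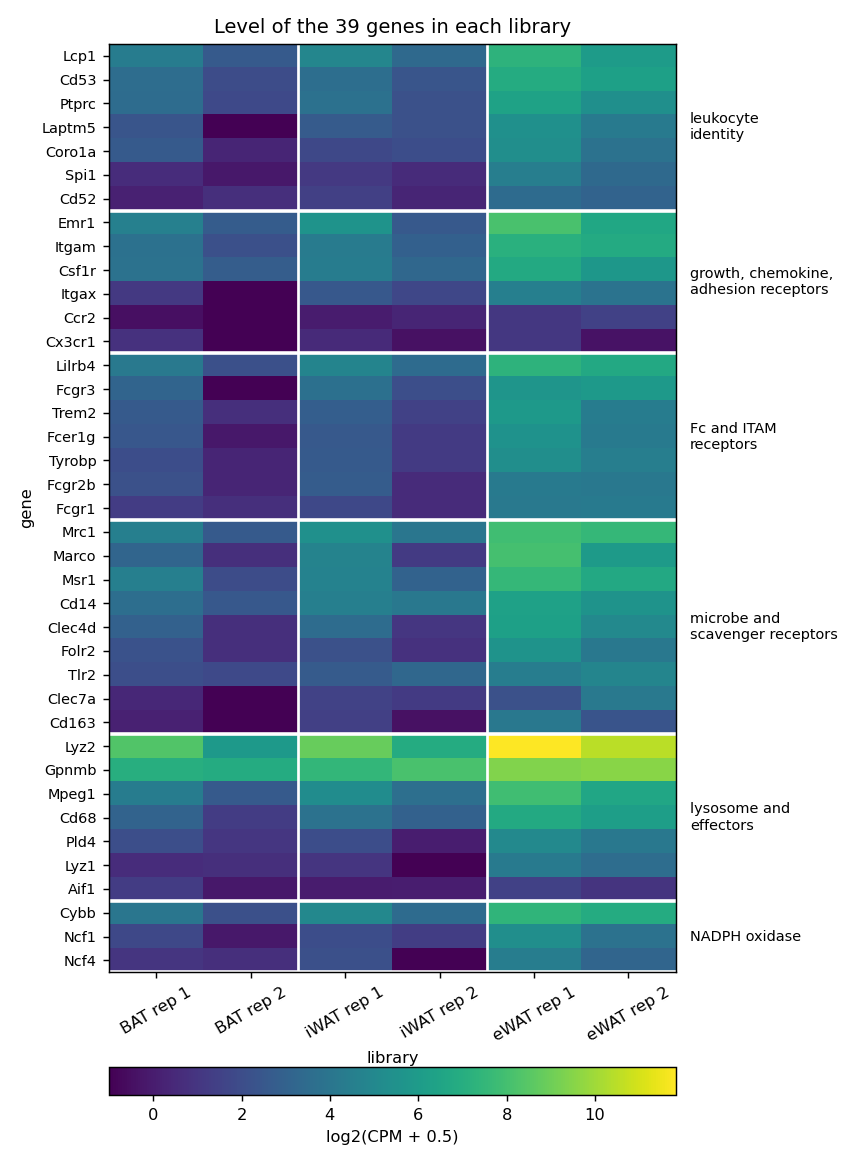
Level of each of the 39 genes (rows, grouped by role) in each library (columns), as log2(CPM + 0.5), brighter for higher. The eWAT columns are the brightest for 37 genes, and the columns of replicate 2 are mostly darker than those of replicate 1; Gpnmb and Tlr2 are brighter in replicate 2 of iWAT and of eWAT.

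The first comparison asks how the macrophage genes of BAT cultures stood against those of eWAT cultures. All 36 tested genes were lower in BAT by estimate, against 52.4% of all genes tested, and 16 fell at an adjusted p below 0.05 (edgeR quasi-likelihood F test, two-sided, Benjamini-Hochberg over 11732 genes) while 0 rose. Over all genes tested, 3.75% fell and 2.71% rose. The median log2 difference of the 36 genes was -3.52, against -0.03 over all genes, with a range of -4.89 (Marco) to -2.50 (Gpnmb). The count of 16 rests on single libraries: it was lower without each of them, and so was the count of all genes that fell. Each such fit leaves 1 library in a depot, and the median log2 difference of the 36 genes then ran from -5.09 to -2.94. DESeq2 called 34 of the genes lower (6.57% of all genes) and limma voom 10 (2.68%), and in all of these fits each of the 36 genes was lower in BAT by estimate. By the authors' deposited table, the genes lower in BAT at an adjusted p below 0.05 numbered 37 of 39, against 9.05% of all its genes; the 2 that were not were Aif1 and Cx3cr1.

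Among the genes that mark leukocytes as a whole, 3 of 7 fell. Spi1, the transcription factor PU.1, had 1.06 and 0.382 CPM in BAT, 1.68 and 1.01 CPM in iWAT, and 21.9 and 9.95 CPM in eWAT. Its log2 difference between BAT and eWAT was -4.28 ± 0.66 (SE, n = 2 each, edgeR adjusted p = 0.0286). Cd53, a tetraspanin of leukocyte membranes, had 11.6 and 3.44 CPM in BAT, 12.0 and 4.78 CPM in iWAT, and 118 and 76.5 CPM in eWAT (BAT minus eWAT -3.59 ± 0.60, edgeR adjusted p = 0.0313). For both genes the eWAT libraries stood apart while BAT and iWAT overlapped. Cd52, a small anchored glycoprotein, had 0.634 and 1.15 CPM in BAT, 2.16 and 0.754 CPM in iWAT, and 10.7 and 7.96 CPM in eWAT (-3.44 ± 0.63, edgeR adjusted p = 0.0367). Ptprc (the phosphatase CD45), Lcp1 and Coro1a (actin-binding proteins) and Laptm5 (a lysosomal membrane protein) ran from -3.50 to -2.90 and did not pass, with adjusted p from 0.0598 to 0.0814.

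Of the growth, chemokine and adhesion receptors, 4 of 6 were tested and 3 fell. Csf1r, the receptor for the macrophage growth factor Csf1, had 13.9 and 6.50 CPM in BAT, 20.4 and 9.30 CPM in iWAT, and 110 and 54.0 CPM in eWAT (BAT minus eWAT -2.95 ± 0.56, edgeR adjusted p = 0.0381). Itgam, the alpha chain of the complement receptor integrin Mac-1, had 13.5 and 3.82 CPM in BAT, 19.5 and 7.04 CPM in iWAT, and 139 and 114 CPM in eWAT (-3.77 ± 0.63, edgeR adjusted p = 0.0313). In both, BAT replicate 1 lay between the iWAT libraries. Itgax, an integrin alpha chain of dendritic cells and of lipid-laden macrophages, had 1.69 and 0 CPM in BAT, 5.29 and 2.77 CPM in iWAT, and 22.6 and 14.2 CPM in eWAT (-4.13 ± 0.81, edgeR adjusted p = 0.0406). Here the BAT libraries lay below both iWAT libraries. Emr1, the surface receptor used as the standard mouse macrophage marker, had 23.5 and 6.12 CPM in BAT, 47.6 and 5.53 CPM in iWAT, and 283 and 99.8 CPM in eWAT, and with -3.62 ± 1.08 it did not pass (edgeR adjusted p = 0.0978).

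Among the genes of Fc receptors, signalling adaptors and related receptors 3 of 7 fell. Tyrobp, the signalling adaptor shared by Trem2 and other myeloid receptors, had 3.59 and 0.765 CPM in BAT, 5.77 and 1.76 CPM in iWAT, and 39.4 and 22.2 CPM in eWAT (BAT minus eWAT -3.65 ± 0.73, edgeR adjusted p = 0.0421). Fcgr1, the high-affinity receptor for IgG, had 1.90 and 1.15 CPM in BAT, 2.89 and 1.01 CPM in iWAT, and 17.7 and 19.3 CPM in eWAT (-3.51 ± 0.53, edgeR adjusted p = 0.0268). Lilrb4, an inhibitory immunoglobulin-like receptor, had 17.8 and 3.82 CPM in BAT, 26.9 and 10.8 CPM in iWAT, and 158 and 107 CPM in eWAT (-3.52 ± 0.69, edgeR adjusted p = 0.0403). All 3 were several-fold above BAT and iWAT in both eWAT libraries. Fcgr2b, Fcgr3, Fcer1g and Trem2 ran from -3.58 to -2.76 with adjusted p from 0.0643 to 0.105. The Fc receptor genes and Lilrb4 have close relatives in the genome, and how reads that match several genes were counted is not given in the sources used here, so their values are uncertain to that extent.

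Of the 9 receptors for microbes and scavenged ligands 3 fell. Mrc1, the mannose receptor, had 22.8 and 5.74 CPM in BAT, 42.6 and 16.1 CPM in iWAT, and 236 and 187 CPM in eWAT (BAT minus eWAT -3.82 ± 0.68, edgeR adjusted p = 0.0353). Cd14, the co-receptor for bacterial lipopolysaccharide, had 12.0 and 5.35 CPM in BAT, 22.4 and 16.8 CPM in iWAT, and 81.1 and 47.2 CPM in eWAT (-2.82 ± 0.44, edgeR adjusted p = 0.0286). Tlr2, the receptor for bacterial lipoproteins, had 3.80 and 3.06 CPM in BAT, 6.01 and 9.30 CPM in iWAT, and 21.0 and 28.2 CPM in eWAT (-2.80 ± 0.37, edgeR adjusted p = 0.0215). For Cd14 and Tlr2 the 3 depots did not overlap, with iWAT between BAT and eWAT. The scavenger receptors Marco, Msr1 and Cd163, the folate receptor Folr2 and the lectins Clec4d and Clec7a ran from -4.89 to -3.41 and did not pass, with adjusted p from 0.0549 to 0.0866. Marco, chosen here for the largest estimate after its values were seen, had 8.66 and 1.15 CPM in BAT, 26.5 and 1.76 CPM in iWAT, and 263 and 62.6 CPM in eWAT, and its replicates differed more than 4-fold in every depot.

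Of the 6 tested genes for lysosomal proteins and effectors 2 fell. Cd68, a lysosomal glycoprotein, had 8.03 and 1.91 CPM in BAT, 13.7 and 7.29 CPM in iWAT, and 109 and 73.7 CPM in eWAT (BAT minus eWAT -4.07 ± 0.58, edgeR adjusted p = 0.0247). Gpnmb, a transmembrane glycoprotein of lysosome-rich cells, had 129 and 119 CPM in BAT, 182 and 283 CPM in iWAT, and 670 and 735 CPM in eWAT (-2.50 ± 0.26, edgeR adjusted p = 0.0149). Gpnmb had the smallest estimate and the smallest standard error of the 36 genes, and its depots did not overlap. Lyz2 had 323 and 61.2 CPM in BAT, 457 and 119 CPM in iWAT, and 3633 and 1443 CPM in eWAT (-3.72 ± 1.02, edgeR adjusted p = 0.0827). Mpeg1, the pore-forming protein perforin-2 of macrophages, had 20.5 and 5.74 CPM in BAT, 36.8 and 12.6 CPM in iWAT, and 238 and 94.7 CPM in eWAT (-3.59 ± 0.79, edgeR adjusted p = 0.0504). In Lyz2 and Mpeg1 the eWAT libraries stood apart, but neither passed the test. Lyz1, whose sequence is close to that of Lyz2, and Pld4, a lysosomal nuclease, had -3.76 and -3.12 (edgeR adjusted p = 0.0521 and 0.063). Reads that match both Lyz1 and Lyz2 carry the same uncertainty as those of the Fc receptor genes, so the values of both are uncertain to that extent.

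The phagocyte NADPH oxidase had 2 of 3 genes that fell. Cybb, its catalytic subunit, had 16.1 and 3.82 CPM in BAT, 30.8 and 10.6 CPM in iWAT, and 167 and 119 CPM in eWAT (BAT minus eWAT -3.75 ± 0.70, edgeR adjusted p = 0.0373). Ncf1, a cytosolic organiser of the complex, had 2.96 and 0.382 CPM in BAT, 3.61 and 2.01 CPM in iWAT, and 40.3 and 13.9 CPM in eWAT (-3.81 ± 0.81, edgeR adjusted p = 0.0472). Ncf4, another cytosolic subunit, had -3.43 and an adjusted p of 0.123. For the oxidase genes too, BAT replicate 1 lay between the iWAT libraries and both eWAT libraries were far above.

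Per kilobase of counted length in eWAT, Lyz2 was the highest with 2401 CPM, followed by Gpnmb with 185, Msr1 with 99.8, Lilrb4 with 88.3 and Marco with 82.1 CPM per kilobase. At the other end stood Cx3cr1 with 0.255, Ccr2 with 0.544 and Aif1 with 2.14 CPM per kilobase. In BAT the same measure put Lyz2 at 182 and Gpnmb at 32.7, and every other gene below 9 CPM per kilobase.

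The 3 genes under the filter were described by their counts. Aif1 had 9 and 1 counts in BAT, 2 and 2 in iWAT, and 10 and 5 in eWAT. As a ratio of summed counts over summed library sizes, BAT stood at 0.709 of eWAT (exact interval for counting error 0.285 to 1.69), and iWAT at 0.256 of eWAT (0.0618 to 0.803). Cx3cr1 had 6 and 0 counts in BAT, 4 and 1 in iWAT, and 7 and 1 in eWAT, with BAT at 0.797 of eWAT (0.228 to 2.62). Both BAT values rest on BAT replicate 1. Without it, a setting added after the data were seen, Aif1 in BAT stood at 0.199 of eWAT (0.00473 to 1.29), and Cx3cr1 had no count in BAT, which allowed up to 1.75 of eWAT. Ccr2, the receptor of recruited monocytes, summed to 1 count in BAT, 5 in iWAT and 15 in eWAT, with BAT at 0.0709 of eWAT (0.00168 to 0.461).

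PU.1 binds a short purine-rich motif near many macrophage genes, so their promoters were searched for the PU box GAGGAA on both strands. RefSeq windows of 300 bases (GRCm38.p6, 250 before the start to 50 after it) were matched for 30 of the 39 genes, 6 of them with more than 1 window. The box was in 15 of the 30 (50.0%), against 31.3% of 27025 genes with such windows. The longer string GAGGAAGT, which contains the box, was in 2 (6.67%), Cd53 and Pld4, against 3.69%. A match is a description of the letters and not a binding site. Shown are the genes called lower in BAT that held at least 2 boxes in a window, Itgam (chr7:128062390-128062689, plus strand), Mrc1 (chr2:14229164-14229463, plus), Cd68 (chr11:69666121-69666420, minus) and Cd53 (chr3:106790100-106790399, minus). Gpnmb (chr6:49036268-49036567, plus), the tested gene with the smallest difference between BAT and eWAT, is shown beside them. Each runs 5′ to 3′ on the strand of the gene, with the boxes of either strand in capitals.
Itgam: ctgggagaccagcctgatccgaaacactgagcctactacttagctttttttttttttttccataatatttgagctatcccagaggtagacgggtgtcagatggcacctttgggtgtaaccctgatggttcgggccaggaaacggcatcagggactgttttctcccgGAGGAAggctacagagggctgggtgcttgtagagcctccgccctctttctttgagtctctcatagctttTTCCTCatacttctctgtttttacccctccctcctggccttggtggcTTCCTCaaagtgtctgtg
Mrc1: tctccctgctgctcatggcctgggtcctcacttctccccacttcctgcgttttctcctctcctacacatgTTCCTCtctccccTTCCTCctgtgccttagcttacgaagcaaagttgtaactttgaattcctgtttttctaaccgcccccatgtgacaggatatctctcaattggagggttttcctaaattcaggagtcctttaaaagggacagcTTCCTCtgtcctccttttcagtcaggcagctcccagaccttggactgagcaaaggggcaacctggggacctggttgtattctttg
Cd68: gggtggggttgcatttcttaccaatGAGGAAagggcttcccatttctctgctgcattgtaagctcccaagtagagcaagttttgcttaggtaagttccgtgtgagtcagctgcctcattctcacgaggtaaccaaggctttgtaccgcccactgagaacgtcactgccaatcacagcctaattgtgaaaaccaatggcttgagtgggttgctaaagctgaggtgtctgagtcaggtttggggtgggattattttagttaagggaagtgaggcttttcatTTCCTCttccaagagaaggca
Cd53: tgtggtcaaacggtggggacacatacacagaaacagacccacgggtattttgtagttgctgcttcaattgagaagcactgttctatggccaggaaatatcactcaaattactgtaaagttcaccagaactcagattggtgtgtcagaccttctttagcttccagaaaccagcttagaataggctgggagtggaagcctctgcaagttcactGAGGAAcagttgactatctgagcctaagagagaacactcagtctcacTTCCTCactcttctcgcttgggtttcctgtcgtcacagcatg
Gpnmb: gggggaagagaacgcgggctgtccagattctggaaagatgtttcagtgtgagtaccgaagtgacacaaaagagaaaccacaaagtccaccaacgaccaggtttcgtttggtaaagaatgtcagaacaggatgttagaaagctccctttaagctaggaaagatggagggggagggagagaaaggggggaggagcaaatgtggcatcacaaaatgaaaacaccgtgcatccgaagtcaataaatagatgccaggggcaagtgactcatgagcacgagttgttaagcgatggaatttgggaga
Itgam and Mrc1 each held 3 boxes, Cd68 and Cd53 each 2, and the Gpnmb window had 0. The windows of Itgax, Ncf1 and Tlr2, also called lower in BAT against eWAT, had 0 as well, so genes called lower stood both with and without a box.

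The second comparison set BAT against iWAT. No macrophage gene passed: edgeR called 0 of 36 lower and 0 higher, against 0.895% and 0.145% of all genes tested. At an unadjusted p below 0.05 there were 3 (Gpnmb, Tlr2 and Cd14, all lower in BAT), against 8.75% of all genes. DESeq2 called 1 lower, Gpnmb (2.82% of all genes), and limma voom 0 (0.528%). The median log2 difference was -0.61, with 32 of 36 negative (51.3% of all genes), and it turned to 0.42 without iWAT replicate 1 and was -2.11 without BAT replicate 1. Gpnmb had a log2 difference of -0.90 ± 0.25 (95% interval -1.50 to -0.31, edgeR adjusted p = 0.160), Tlr2 one of -1.13 ± 0.38 (-2.05 to -0.21, edgeR adjusted p = 0.223) and Cd14 one of -1.11 ± 0.44 (-2.19 to -0.04, edgeR adjusted p = 0.286). For these 3 genes both BAT libraries lay below both iWAT libraries. By the authors' deposited table, the genes lower in BAT than in iWAT numbered 9 of 39 (Cd68, Itgax, Cd14, Lyz2, Gpnmb, Mrc1, Mpeg1, Marco and Cybb), against 5.33% of all its genes.

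The third comparison set iWAT against eWAT. All 36 tested genes were lower in iWAT by estimate (48.7% of all genes), with a median log2 difference of -2.96 (all genes 0.01) and a range of -4.31 (Lyz1) to -1.60 (Gpnmb). None passed with edgeR after adjustment, as none of the 11732 genes did (0%), although all 36 had an unadjusted p below 0.05, against 5.44% of all genes. DESeq2 called 24 of them lower, against 1.6% of all genes, and limma voom called 0 (0%). The smallest edgeR adjusted p among the genes was 0.124, for Gpnmb (-1.60 ± 0.25). By the authors' deposited table, the genes lower in iWAT numbered 36 of 39, against 5.27% of all its genes, and Aif1, Cx3cr1 and Ccr2 were not. The 3 comparisons share libraries, so their values stand side by side and are not independent.

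**Figure D3:**
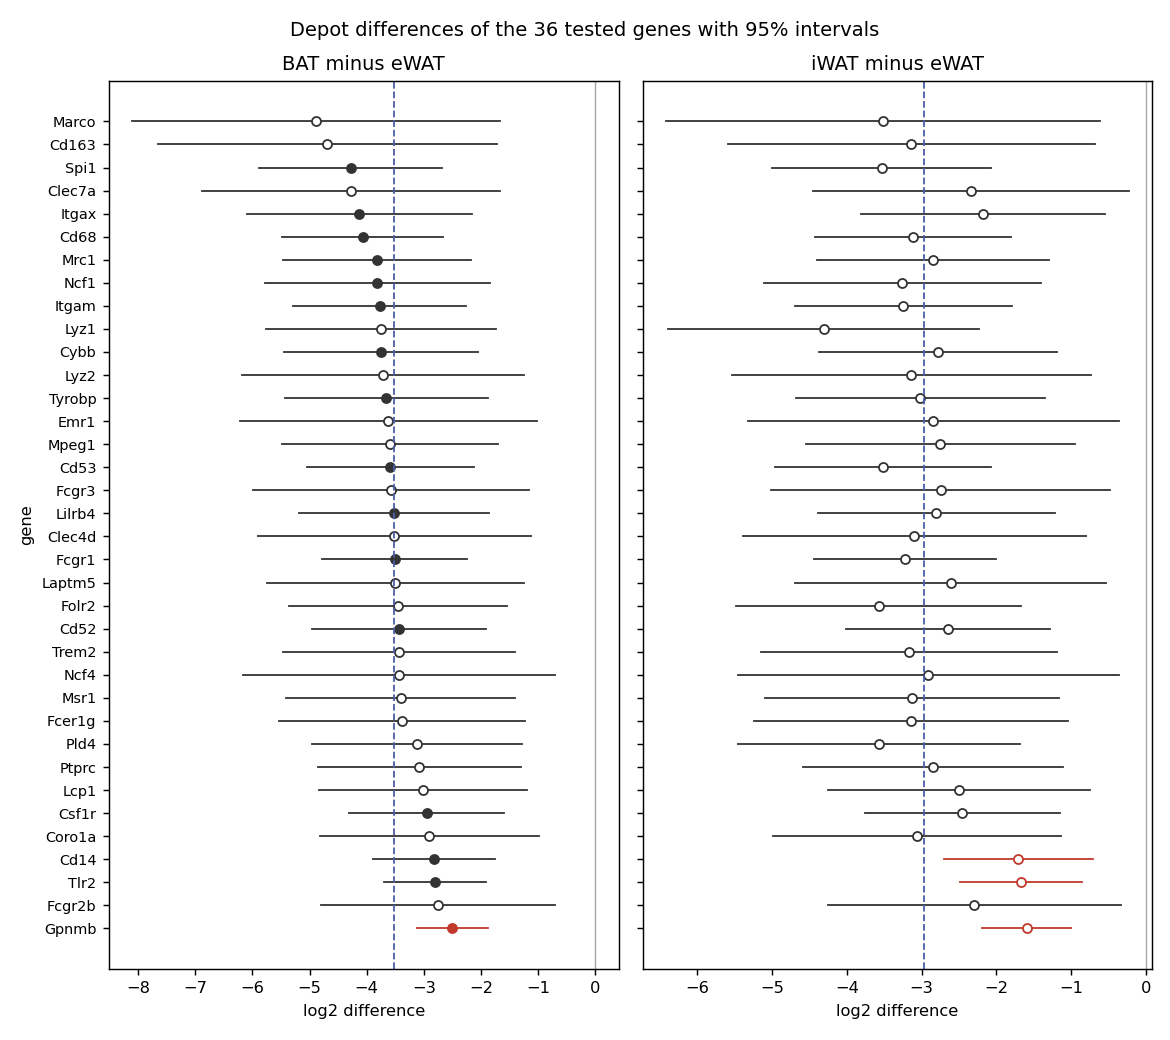
Log2 differences of the 36 tested genes between BAT and eWAT (left) and between iWAT and eWAT (right), with 95% intervals from the edgeR fit. Filled points passed an adjusted p of 0.05 (16 on the left, 0 on the right), the dashed line is the median of the genes (-3.52 and -2.96), and red marks the genes whose interval leaves it out.

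For most genes the interval of the depot difference held the median of all of them. A gene was said to depart where the 95% interval of its log2 difference left out the median of the 36. The rule depends on precision, so a gene that did not depart is not shown to share the pattern. Between BAT and eWAT Marco lay further from the median (-1.37) than Gpnmb (1.02) but did not depart, with a standard error of 1.33 against 0.26. Between BAT and eWAT only Gpnmb departed, with -2.50 (-3.12 to -1.88) against the median of -3.52. Between iWAT and eWAT 3 departed, Gpnmb with -1.60 (-2.19 to -0.999), Tlr2 with -1.68 (-2.49 to -0.86) and Cd14 with -1.71 (-2.71 to -0.71), against -2.96. Between BAT and iWAT 0 did. With a 99% interval Gpnmb still departed in both and Tlr2 in the second, while Cd14 did not. The departures from eWAT depended on single libraries. Without BAT replicate 2 or eWAT replicate 1 there were 0 between BAT and eWAT, without BAT replicate 1 there were 6 and without eWAT replicate 2 there were 2. Between iWAT and eWAT there were 0 without iWAT replicate 2 or eWAT replicate 1, 5 without iWAT replicate 1 and 4 without eWAT replicate 2. Between BAT and iWAT there were 4 without BAT replicate 1, 4 without iWAT replicate 1 and 1 (Gpnmb) without iWAT replicate 2.

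Each gene was also taken relative to the core within the same library. Tyrobp was the tightest: its log2 ratio to the core stayed between -5.10 and -4.94 over the 6 libraries, a range of 0.16, in which BAT replicate 2 rests on only 2 counts. Of the 36 tested genes 16 had a range below 1, and of the 11 with at least 10 counts in every library 7 did. Those 7 were Cybb (0.49), Lilrb4 (0.51), Mrc1 (0.59), Lyz2 (0.61), Mpeg1 (0.67), Itgam (0.82) and Lcp1 (0.93). The other 4 were Csf1r (1.58), Emr1 (1.71), Cd14 (2.09) and Gpnmb (3.10).

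Gpnmb lies on chromosome 6 (mm9, 48986516 to 49008181, plus strand). Its log2 ratio to the core was 0.03 and 1.83 in BAT, -0.12 and 2.14 in iWAT, and -0.96 and 0.06 in eWAT. Replicate 2 was above replicate 1 by 1 log2 unit or more in each depot, and in that ratio the depots overlapped. By its own level, Gpnmb was nearly equal in the replicates of BAT and of eWAT and higher in replicate 2 of iWAT, while the core was from 1.84 to 3.81 times as high in replicate 1 as in replicate 2. Tlr2, on chromosome 3 (mm9, 83640193 to 83645530, minus strand), had log2 ratios of -5.02 and -3.36 in BAT, -5.02 and -2.76 in iWAT, and -5.95 and -4.64 in eWAT. Its pattern over the replicates was that of Gpnmb, on far fewer counts: 18 and 8 in BAT, 25 and 37 in iWAT, and 90 and 99 in eWAT.

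Of the tested genes Cd14, Csf1r and Lcp1 differed from these in that both eWAT libraries were the lowest. For Tyrobp both were the highest, within its range of 0.16. The log2 ratio of Cd14 to the core was -3.38 and -2.59 in BAT, -3.14 and -1.91 in iWAT, and -4.00 and -3.90 in eWAT, so both eWAT libraries were the lowest. Csf1r had -3.00 and -2.01 in BAT, -3.11 and -2.54 in iWAT, and -3.44 and -3.59 in eWAT, again lowest in eWAT. So did Lcp1, over a smaller range, with -2.64 and -2.50 in BAT, -2.76 and -2.69 in iWAT, and -3.07 and -3.42 in eWAT. In the other direction the ratio of Marco was -3.85 and -4.64 in BAT, -2.90 and -5.08 in iWAT, and -2.30 and -3.49 in eWAT, so BAT lay below eWAT and iWAT overlapped it. Marco was not alone: of the 36 tested genes, the ratio in BAT lay below eWAT for 7, above it for 6 and overlapped it for 23. In iWAT it lay below eWAT for 6, above it for 6 and overlapped it for 24. The same counts were not taken over all genes. These ratios are descriptions with no test.

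**Figure D4:**
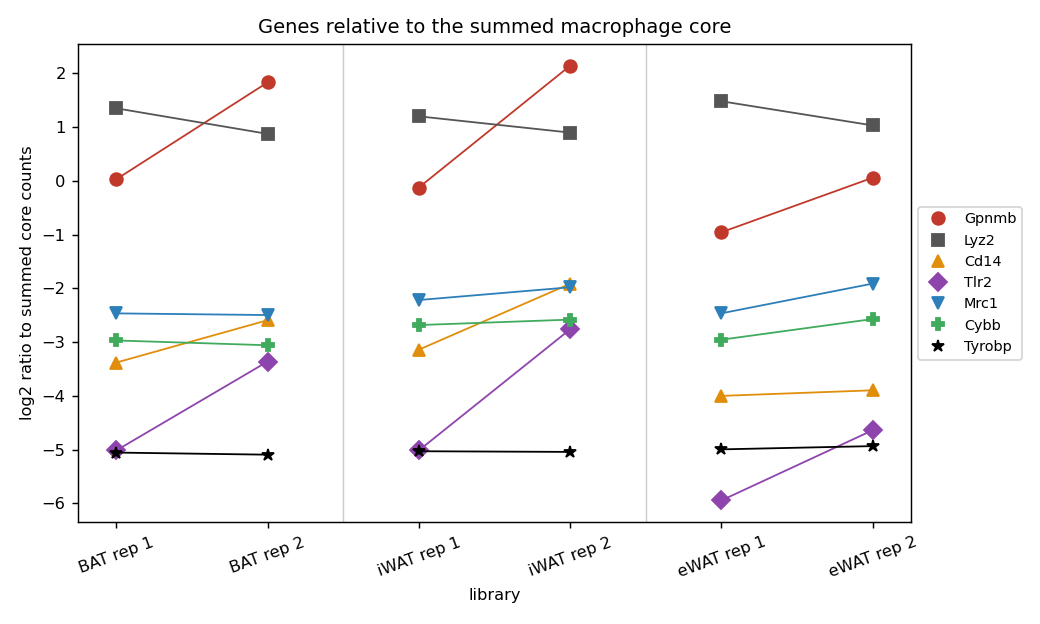
Log2 ratio of 7 genes to the summed counts of the macrophage core in each library (for Tyrobp, the core without it); lines join the replicates of a depot. Tyrobp, Cybb, Mrc1 and Lyz2 stay within 0.61 log2 units over the 6 libraries, while Gpnmb (range 3.10), Tlr2 (3.18) and Cd14 (2.09) move. Gpnmb, Tlr2 and Cd14 are each higher in replicate 2 of every depot, Cd14 by little in eWAT (-4.00 and -3.90).

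In 6 genes eWAT replicate 2 was higher than eWAT replicate 1, against the direction of the core, and in 5 genes this was so in iWAT and in 2 in BAT. For Clec7a, a beta-glucan receptor singled out after its values were seen, the CPM was 0.845 and 0 in BAT, 2.41 and 1.76 in iWAT, and 3.96 and 17.6 in eWAT. Arg1, the arginase of alternatively activated macrophages and no member of the list, showed the same with 19 and 1 counts in BAT, 35 and 7 in iWAT, and 86 and 271 in eWAT (edgeR adjusted p = 0.0689 for BAT minus eWAT).

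Genes outside the list that most resembled the core were ranked by the root mean square distance of their centred log2 CPM over the 6 libraries, among 10364 genes with a mean of at least 5 CPM. Tyrobp ranked 1, and 19 of the 50 nearest genes were on the list, to which the core genes contribute by construction. The 10 nearest genes from outside it were Ctss, Rac2, Adam8, Ccl12, Dock2, C3ar1, Cd84, Rnf128, Alox5ap and Ly9. Ctss, the lysosomal protease cathepsin S, had 25.6 and 6.12 CPM in BAT, 31.0 and 12.6 CPM in iWAT, and 226 and 136 CPM in eWAT. Rac2, a GTPase of blood cells that takes part in the NADPH oxidase, had 3.59 and 1.15 CPM in BAT, 5.77 and 2.01 CPM in iWAT, and 37.5 and 19.1 CPM in eWAT.

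A further list of 37 macrophage and myeloid genes was also chosen with earlier results of these data known. Its counts are an account of these genes and not support for a depot difference. Over all genes tested, 3.75% fell and 2.71% rose between BAT and eWAT, to be set beside this list and those after it. Of the 35 tested genes of the further list 12 fell between BAT and eWAT and 0 rose, with a median of -3.27 and all 35 negative (52.4% of all genes). The integrin beta chain Itgb2 (-3.75 ± 0.45, edgeR adjusted p = 0.0195), the P-selectin ligand Selplg (-4.22 ± 0.60, edgeR adjusted p = 0.0234) and the oxidase subunit Cyba (-2.56 ± 0.40, edgeR adjusted p = 0.0286) were among them. Between BAT and iWAT 0 of the 35 were called, against 0.895% of all genes lower and 0.145% higher, with a median of -0.25. Of the markers of resident tissue macrophages 2 of 7 tested fell between BAT and eWAT. Stab1, a scavenger receptor, had 8.24 and 7.65 CPM in BAT, 11.3 and 6.28 CPM in iWAT, and 121 and 37.3 CPM in eWAT (-3.31 ± 0.62, edgeR adjusted p = 0.0372).

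In Ccl8, a chemokine made by resident macrophages, both iWAT libraries lay within the range of eWAT. It had 2.32 and 1.91 CPM in BAT, 49.6 and 58.1 CPM in iWAT, and 33.1 and 78.5 CPM in eWAT. The gene fell in BAT against both eWAT (-4.66 ± 0.53, edgeR adjusted p = 0.0162) and iWAT (-4.62 ± 0.53, edgeR adjusted p = 0.0237). The chemokines Ccl3 (-4.70 ± 0.41, edgeR adjusted p = 0.0103) and Ccl4 (-4.24 ± 0.52, edgeR adjusted p = 0.0203) were the 2 of 5 tested inflammatory genes that fell between BAT and eWAT. Il1b, a defining cytokine of that list, had at most 1 count in a library. Of the osteoclast and giant cell genes 2 of 6 tested fell, the proton pump subunit Atp6v0d2 (-4.41 ± 0.60, edgeR adjusted p = 0.0222) and the protease Mmp9 (-4.11 ± 0.60, edgeR adjusted p = 0.0247), while Ocstamp, Dcstamp, Calcr and Oscar were under the filter. The median log2 difference of the 6 was only -0.42, with 5 negative. Their list summed to 80.3 and 49.7 CPM in BAT, 96.0 and 83.0 CPM in iWAT, and 98.3 and 129 CPM in eWAT. Retnla, of the alternative activation list, was at 0 in all 6 libraries.

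Markers of T, NK and B cells were near 0. The 10 T and NK cell markers summed to between 1.06 and 3.98 CPM in a library and the 6 B cell markers to at most 0.932 CPM, none of the 16 was tested, and Cd3e and Blk were at 0 in every library. Of the 10 neutrophil markers in the table only Mmp8 was tested, and it did not pass (edgeR adjusted p = 0.205). The neutrophil list summed to 6.13 and 6.88 CPM in BAT, 20.9 and 3.52 CPM in iWAT, and 34.9 and 18.8 CPM in eWAT, so its sum was also lower in both BAT libraries than in eWAT, and its part in the result was not tested. Of the 8 mast cell markers Kit and Cpa3 were tested and neither passed; the list summed to 9.93 and 10.3 CPM in BAT, 14.7 and 26.1 CPM in iWAT, and 7.22 and 9.39 CPM in eWAT. The 2 tested dendritic cell markers, Itgae and Zbtb46, did not pass either (edgeR adjusted p = 0.796 and 0.931), and the dendritic cell list summed to 10.1 and 12.2 CPM in BAT, 8.42 and 11.8 CPM in iWAT, and 12.1 and 9.10 CPM in eWAT. The red cell and platelet markers summed to 5.49 and 4.97 CPM in BAT, 9.38 and 6.54 CPM in iWAT, and 47.3 and 58.0 CPM in eWAT. Of them Hbb-b1, Hba-a1 and Gp9 were at 0 in every library and only Pf4, a chemokine that mouse macrophages also make, was tested, and it fell in BAT against eWAT (-3.81 ± 0.56, edgeR adjusted p = 0.0257).

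Markers of the cells around the macrophages moved in other ways. Of the 10 adipocyte markers 1 fell between BAT and eWAT, Cfd (-3.25 ± 0.53, edgeR adjusted p = 0.0313), and 0 rose, against 3.75% and 2.71% of all genes tested. Of 8 tested fibroblast and preadipocyte markers 5 fell and 1 rose; their list summed to 3832 and 2822 CPM in BAT, 19208 and 20580 CPM in iWAT, and 16782 and 18343 CPM in eWAT, so iWAT stood with eWAT there and not with BAT. Dcn and Lum, matrix proteoglycans of fibroblasts, led it (-3.68 ± 0.25 and -5.14 ± 0.52, edgeR adjusted p = 0.00657 and 0.0149). Of the mesothelial markers 1 of 2 tested fell, Wt1 (-4.58 ± 0.63, edgeR adjusted p = 0.023). The other did not pass and was higher in BAT by estimate. The mesothelial list summed to 9.30 and 6.50 CPM in BAT, 29.3 and 11.1 CPM in iWAT, and 31.2 and 42.1 CPM in eWAT. Of the 5 endothelial markers 0 passed. The part of all these markers in the macrophage results was not tested.

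Of 5 tested factors that feed and recruit macrophages, 0 passed between BAT and eWAT, against 3.75% lower and 2.71% higher of all genes tested. At that share a count of 0 among 5 genes does not set them apart. All 5 were lower in BAT by estimate, with a median log2 difference of -1.22. Csf1, the ligand of Csf1r, had 339 and 132 CPM in BAT, 423 and 255 CPM in iWAT, and 580 and 186 CPM in eWAT (BAT minus eWAT -0.70 ± 0.64, edgeR adjusted p = 0.547). Ccl2, the ligand of Ccr2, had 91.1 and 19.9 CPM in BAT, 107 and 32.7 CPM in iWAT, and 274 and 243 CPM in eWAT (-2.19 ± 0.77, edgeR adjusted p = 0.142). In Csf1 the depots overlapped, while for Ccl2 both eWAT libraries lay above the other 4.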

How the data were processed

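RNA was measured in 6 libraries of cultured adipocytes, 2 per depot; total RNA was depleted of ribosomal RNA before sequencing, per the labels. The reads were aligned with STAR to mm9, per the submitters' processing notes; versions, counting program, strandedness and treatment of reads that match several genes: not given in the sources used here. Whole-number read counts per gene were deposited by the authors with no normalization, per the name of their table, with mm9 coordinates and a counted length. A second table deposited by the authors holds a log2 fold change and an adjusted p-value per pair of depots. Its values were used only where named, and its fold changes already ran in the directions given here.

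Groups came from the sample titles. Of 20295 genes, 2596 were at 0 in all libraries and 11732 passed filterByExpr (minimum count 10). CPM used trimmed-mean (TMM) factors; edgeR 4.0.16 fitted all 6 libraries with depot as the only term (common biological coefficient of variation 0.251, 3 residual and 3.34 prior degrees of freedom). The threshold for a call was an adjusted p of 0.05. A standard error is the absolute log2 difference over the square root of F, and its 95% interval uses t at the total degrees of freedom. Ratios to the core used a pseudocount of 0.5 counts, the gene itself left out of the core. Between replicates chi-square per degree of freedom was 19.8 in BAT, 16.0 in iWAT and 18.4 in eWAT, far above counting error. No listed macrophage gene overlapped another gene of the table. The procedure was tested on simulated data. R 4.3.3, limma 3.58.1 (voom), DESeq2 1.42.0, Python 3.11.15, pandas 2.3.3 and matplotlib 3.10.9 were also used; promoter windows came from RefSeq.

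The genes and all gene lists were chosen with earlier results of these data known. Values in every library are given by rule for genes called in any comparison, the 5 of highest mean CPM, those that depart and those under the filter with at least 10 counts in a library. Of other lists up to 4 tested genes by smallest adjusted p are named, with defining markers at 0; 1 gene that this rule names is not reported here. Other genes were named after their values were seen. Chi3l3 and Ly6g, each on a list, were not matched in the count table. Alternatives were other scalings, DESeq2, limma voom, no filter, fits of only 2 depots, a replicate block and leaving out each library.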

Additional observations from a re-analysis of the deposited data

How the results depend on the processing

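Counts of calls depended on the tool, while the direction of the macrophage genes against eWAT did not: all 36 tested genes stayed lower in BAT and in iWAT than in eWAT under every alternative run. Between BAT and eWAT, genes called lower numbered 34 with DESeq2, 10 with limma voom, 36 with no filter and 6 with only 2 depots fitted, against 16; scaling with library totals, which moved the median of all genes to -0.18 between BAT and eWAT and -0.10 between BAT and iWAT, gave 19. Between BAT and iWAT, against 0, DESeq2 and no filter each called 1 (Gpnmb). Between iWAT and eWAT, against 0, DESeq2 called 24 and no filter 36. The causes were not tested. Without 1 library at a time the macrophage genes called lower between BAT and eWAT ran from 0 to 15 and their median from -5.09 to -2.94; the median ran from -2.11 to 0.42 between BAT and iWAT and from -3.97 to -2.32 between iWAT and eWAT. Departing genes ran from 0 to 6 between BAT and eWAT, 0 to 4 between BAT and iWAT and 0 to 5 between iWAT and eWAT.

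Over all genes tested, BAT against eWAT gave 318 higher and 440 lower in the edgeR fit of all libraries, 599 and 771 with DESeq2, 769 and 1168 with no filter, 40 and 116 with only 2 depots, and from 4 to 415 and from 13 to 414 without 1 library. BAT against iWAT gave 17 higher and 105 lower, 179 and 331 with DESeq2, 7 and 62 with limma voom, 249 and 531 with no filter, 7 higher with only 2 depots, and from 0 to 7 and from 0 to 87 without 1 library. iWAT against eWAT gave 0 and 0, 113 and 188 with DESeq2, 1 higher with limma voom, 204 and 353 with no filter, 2 higher with only 2 depots, and from 0 to 2 in each direction without 1 library.

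The depots share replicate numbers 1 and 2, but the labels do not say what a number marks. Deviations of same-numbered libraries from their depot means correlated across genes by 0.42 (BAT and iWAT), 0.38 (BAT and eWAT) and 0.53 (iWAT and eWAT). With the replicate number as a block, the macrophage genes called lower numbered 36 between BAT and eWAT, 3 between BAT and iWAT and 35 between iWAT and eWAT. Over all genes the block gave 1276 higher and 1504 lower between BAT and eWAT, 534 and 691 between BAT and iWAT, and 195 and 368 between iWAT and eWAT. The genes whose interval left out the median of the tested genes then numbered 6 between BAT and eWAT, 0 between BAT and iWAT and 5 between iWAT and eWAT.

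Depth limits Aif1, Cx3cr1 and Ccr2 and the ratios of BAT replicate 2, where only 11 of the 39 genes reached 10 counts. With 2 libraries per depot no outlier among replicates could be identified, and no single result was examined further.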

Other observations

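The complement genes C1qa, C1qb and C1qc, made by tissue macrophages and singled out after their values were seen, were low in BAT replicate 2 and in iWAT replicate 2. C1qb and C1qc were low in iWAT replicate 1 as well. C1qb had 18 and 1 counts in BAT, 2 and 1 in iWAT, and 142 and 31 in eWAT. C1qc had 27 and 0 counts in BAT, 4 and 3 in iWAT, and 192 and 66 in eWAT. C1qa had 29 and 0 counts in BAT, 15 and 0 in iWAT, and 323 and 85 in eWAT. In these genes BAT replicate 1 was above both iWAT libraries, while BAT replicate 2 had at most 1 count; none passed the test between BAT and eWAT (edgeR adjusted p from 0.0912 to 0.122) or between BAT and iWAT (edgeR adjusted p from 0.399 to 0.806).

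Lgals3, the lectin galectin-3, was the most even gene of the macrophage lists, with 209 and 188 CPM in BAT, 255 and 236 CPM in iWAT, and 290 and 307 CPM in eWAT (BAT minus eWAT -0.59 ± 0.16, edgeR adjusted p = 0.0851). The mast cell protease Cma1 had 0 and 0 counts in BAT, 2 and 20 in iWAT, and 0 and 3 in eWAT.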
